A study of Mus musculus with 4 samples.

Results

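The genes described here are those of the glial cell line-derived neurotrophic factor (GDNF) family that were listed for this account, namely the receptor genes Gfra1, Gfra2, Gfra3 and Gfra4, the signalling receptor gene Ret, the alternative co-receptor gene Ncam1, and the ligand genes Gdnf, Nrtn and Artn. They were found by gene symbol in the deposited expression table, where all 9 had 1 probe set each among 20193 genes with a symbol. The genes were chosen by family, with the measured log2 fold changes of the same comparison already known and Gfra1 among its large rises, so the values of the 9 genes are given as a description and support nothing by themselves. C2C12 is an established mouse myoblast line, kept here in growth medium with serum. The control cells carried the empty expression vector pcDNA3.1/Zeo(+), and the other cells carried the same vector with Myolinc, a long noncoding RNA, and were kept as a polyclonal line. All cells had been transfected with Lipofectamine and selected with Zeocin. Total RNA of 2 cultures a group, called biological replicates in the labels, was hybridised to 4 Affymetrix arrays. The labels name 1 line a group, so line and vector insert cannot be told apart, and no row of the files is named Myolinc, whose own level was therefore not analysed here.

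GDNF family ligands are secreted dimers that bind GFRalpha receptors, which are held in the outer membrane by a lipid anchor and have no enzyme of their own. The complex of ligand and GFRalpha draws in RET, a transmembrane tyrosine kinase, which passes the signal on through adaptors to the MAP kinase and PI3 kinase pathways. GDNF prefers GFRalpha1, neurturin (Nrtn) prefers GFRalpha2, artemin (Artn) prefers GFRalpha3 and persephin prefers GFRalpha4. NCAM, a homophilic adhesion molecule of neurons and muscle cells, can act with GFRalpha1 as a receptor for GDNF in place of RET. Skeletal muscle makes GDNF, which supports motor neurons and their contacts with muscle fibres.

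The values are log2 expression values made by the authors with RMA, so a difference of 1 is a doubling. The cultures had the marks of myoblasts. All 9 of 9 myoblast markers lay no lower than 7.27, the median over all probe sets, called the median level from here on, and Myod1, the myogenic transcription factor, stood at 11.51 ± 0.05 with the empty vector and 11.57 ± 0.03 in the Myolinc line (SD, n = 2 per group). Of 10 myotube markers 4 lay at or above the median level as well, and of 8 fibroblast markers 3 did. The median of an array lay between 7.24 and 7.35. With 2 arrays a group the precision of each value is limited, and p-values cover the spread among these arrays alone, which may be technical in part.

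Of the 3 genes that moved most, Gfra1, Gdnf and Ret, the sequence table held upstream windows for Gfra1 and Gdnf. Their windows are shown because they are the family's receptor and ligand pair that moved in opposite directions. Each is the 250 bases before an annotated start, from RefSeq on the GRCm38.p6 build, 5′ to 3′ on the gene's strand, and capitals mark every CANNTG, the E-box letters that MyoD-type factors can bind. The Gfra1 window is chr19:58455399-58455648 on the minus strand, and the Gdnf windows are chr15:7809798-7810047 and chr15:7813477-7813726 on the plus strand.
Gfra1: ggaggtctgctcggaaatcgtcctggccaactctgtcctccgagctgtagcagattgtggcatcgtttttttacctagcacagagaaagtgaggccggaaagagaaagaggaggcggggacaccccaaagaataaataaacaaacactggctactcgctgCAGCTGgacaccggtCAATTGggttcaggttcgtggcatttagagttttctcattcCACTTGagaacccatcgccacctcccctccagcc
Gdnf, start 1: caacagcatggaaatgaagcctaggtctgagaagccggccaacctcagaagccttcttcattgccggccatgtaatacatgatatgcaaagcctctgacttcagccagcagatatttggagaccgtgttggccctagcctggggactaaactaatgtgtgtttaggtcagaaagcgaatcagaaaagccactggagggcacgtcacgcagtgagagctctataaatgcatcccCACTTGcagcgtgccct
Gdnf, start 2: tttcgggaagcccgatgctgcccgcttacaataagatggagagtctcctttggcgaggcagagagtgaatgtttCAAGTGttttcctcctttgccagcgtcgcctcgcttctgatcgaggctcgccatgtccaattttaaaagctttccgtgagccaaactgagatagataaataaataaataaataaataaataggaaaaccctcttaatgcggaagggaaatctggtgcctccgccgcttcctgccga

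The Gfra1 window held 3 E-boxes, which begin 90, 75 and 34 bases before the start, and the one farthest from the start reads CAGCTG. Each Gdnf window held 1 E-box, beginning 17 bases before the start in the first window and 176 bases before it in the second. The letters TATAAA, searched on both strands, were found 1 time in the first Gdnf window and in neither of the others. Over 32851 upstream windows of the same length, 66.2% held at least 1 CANNTG, with a median of 1, 13.0% held CAGCTG, which is one of the CANNTG forms, and 12.4% held TATAAA. These matches describe letters and are no evidence of binding. The table matched 5 of the 9 genes, with 7 windows, and the windows of Nrtn, Artn and Gfra4 held between 2 and 5 E-boxes. CAGCTG was also found 1 time each in the Nrtn window, the Artn window and the first Gfra4 window, so it was not particular to Gfra1.

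Gfra1, the ligand-binding receptor for GDNF, showed the widest difference of the family. It read 8.16 and 8.31 on the empty vector arrays and 10.49 and 10.59 on the Myolinc arrays. Both Myolinc arrays lay above both empty vector arrays, and the gap of 2.18 between the groups was far wider than the gaps of 0.15 and 0.10 within them. The group means were 8.24 ± 0.10 and 10.54 ± 0.07 (SD, n = 2 per group), a log2 fold change of 2.31 (SE 0.08), or 4.95-fold higher in the Myolinc line. By size of rise it ranked 14 among the 20193 genes. The second empty vector value is one of 81 on that array, among genes with a symbol, stored with 3 digits. Recovered from the authors' deposited fold change it was 8.31 again (8.3077). Ptprf, Cd34, Art3, Il13ra1 and Il2rg, described below, hold such a value on that array too. In RNA from a whole culture, a larger share of cells with a transcript and more transcript per cell cannot be told apart.

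Ret, the tyrosine kinase shared by the family's receptors, was higher as well. It read 7.81 and 7.96 with the empty vector and 8.82 and 8.80 in the Myolinc line. The groups did not overlap, and they lay 0.85 apart, against gaps of 0.15 and 0.02 within them. The log2 fold change was 0.93 (SE 0.08), or 1.90-fold, between means of 7.88 ± 0.10 and 8.81 ± 0.01, which ranked 159 by size of rise.

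Gdnf, the ligand that GFRalpha1 prefers, was lower in the Myolinc line. It read 9.37 and 9.37 with the empty vector and 9.03 and 9.003 in the Myolinc line. The replicates lay within 0.01 and 0.03 of each other and the groups 0.34 apart. The log2 fold change was -0.36 (SE 0.06), or 1.28-fold lower, between means of 9.37 ± 0.00 (SD 0.00356) and 9.02 ± 0.02. A total of 1249 genes fell by as much or more.

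**Figure D1:**
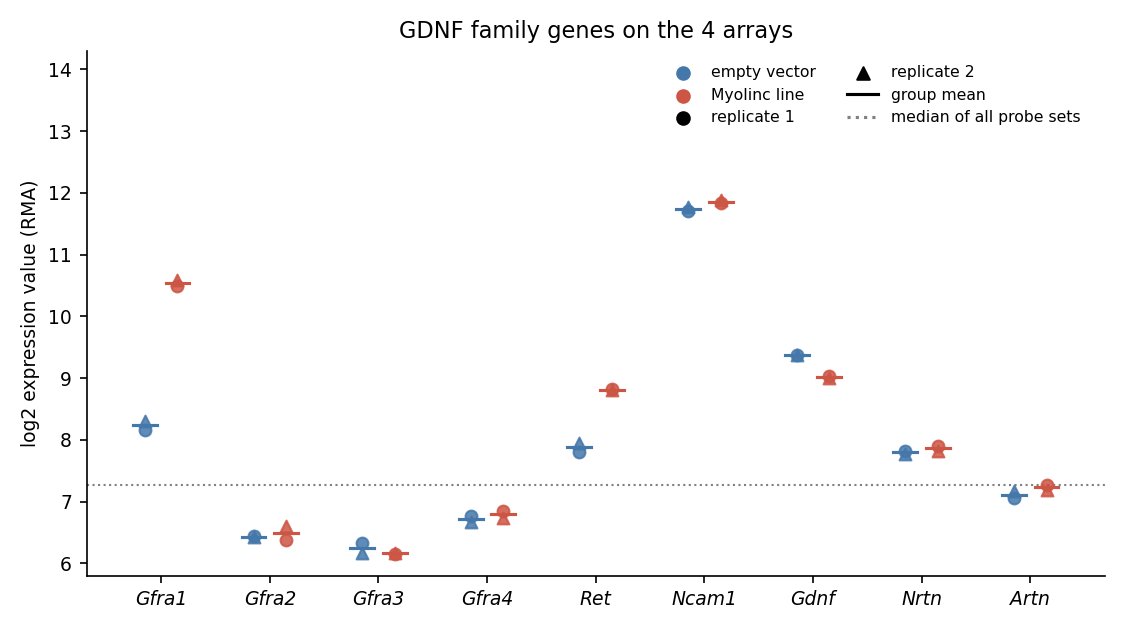
Log2 expression values (RMA) of the 9 GDNF family genes on the 4 arrays, with circles for replicate 1, triangles for replicate 2, bars for group means and a dotted line at the median of all probe sets, 7.27. Gfra1 stands 2.31 higher and Ret 0.93 higher in the Myolinc line, Gdnf differs by -0.36, and the other genes differ by at most 0.12.

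The other ligand-binding receptors differed little between the groups. Gfra2, the receptor for neurturin, read 6.44 and 6.42 with the empty vector and 6.37 and 6.61 in the Myolinc line, with a log2 fold change of 0.06 (SE 0.10). Gfra3, the receptor for artemin, read 6.33 and 6.17 against 6.15 and 6.17 (-0.09, SE 0.08). Gfra4, the receptor for persephin, read 6.77 and 6.67 against 6.85 and 6.74 (0.07, SE 0.07). The groups overlapped for each of these receptors, and each stayed under the median level in both groups, where an array says little about a change. Of the 4 GFRalpha genes, Gfra1 was thus the one above that median level.

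Ncam1, the alternative partner of GFRalpha1, read 11.70 and 11.77 with the empty vector and 11.84 and 11.88 in the Myolinc line. The groups did not overlap, but they lay 0.07 apart, about as far as the empty vector arrays from each other, and the log2 fold change was 0.12 (SE 0.06). Nrtn, the ligand of GFRalpha2, read 7.82 and 7.78 against 7.90 and 7.82 (0.06, SE 0.06), and Artn, the ligand of GFRalpha3, read 7.05 and 7.17 against 7.27 and 7.19 (0.12, SE 0.08). For both ligands the groups were separated by less than the gap between replicates of either group.

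At an adjusted p under 0.05 in limma, with Benjamini-Hochberg adjustment over 28940 probe sets, 2 of the 9 genes rose (Gfra1 and Ret), 1 fell (Gdnf) and 6 did not pass, beside 3.97% of all genes that rose, 3.97% that fell and 7.94% in either direction. For 6 of the 9 the groups' arrays showed no overlap, beside 53.9% of all genes. The same comparison had a part in choosing the list, so nothing is read from these counts. The median log2 fold change of the 9 genes was 0.07, against 0.02 over all genes. In this limma fit the adjusted p was 0.00672 for Gfra1, 0.0182 for Ret and 0.0460 for Gdnf, which thus passed narrowly. A gene that did not pass is not thereby shown to be unchanged. Of 17 other settings, Gfra1 did not pass in 3, Ret in 6 and Gdnf in 11. The setting with at least 2-fold was out of reach for Ret and Gdnf by size alone, and the ordinary linear model passed no gene. In 4 of the 17 settings 1 array was left out, so that 1 group held a lone array. It was assumed to vary like the other group, with 1 residual degree of freedom. A missed threshold in any of these settings says little about a gene. None of the 3 genes passed once either empty vector replicate was left out, and no gene of the whole table did there. Gdnf also missed the threshold without either Myolinc replicate (adjusted p = 0.115 and 0.0935 in limma), and over all settings its adjusted p ran from 0.00460 to 0.269. The sizes moved little, from 2.23 to 2.38 for Gfra1, 0.86 to 1.00 for Ret and -0.40 to -0.33 for Gdnf.

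**Figure D2:**
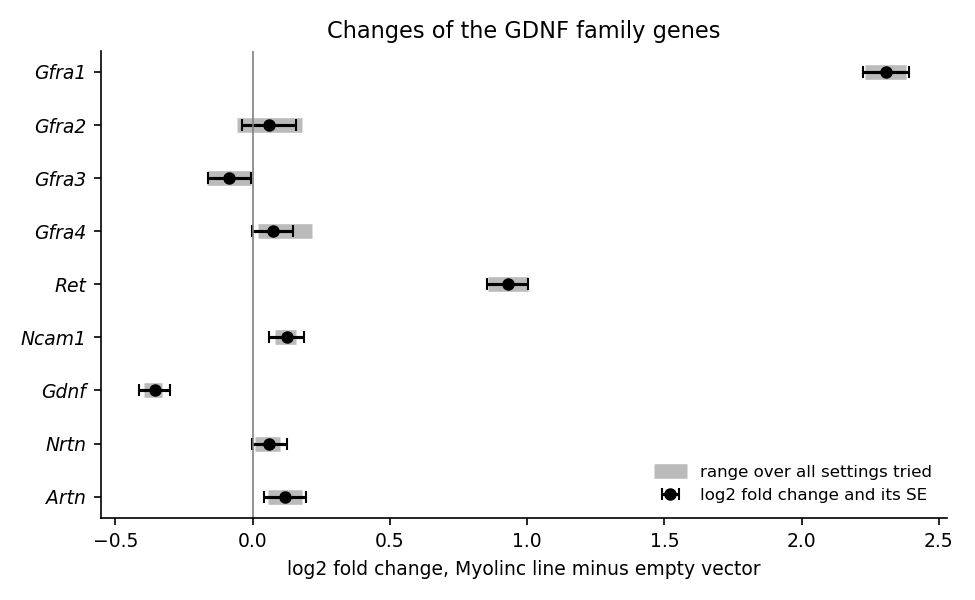
Log2 fold change of each GDNF family gene, Myolinc line minus empty vector, with its standard error (points and bars) and the range over all settings tried (grey). Gfra1 lies between 2.23 and 2.38, Ret between 0.86 and 1.00 and Gdnf between -0.40 and -0.33 in every setting, whereas Gfra2 spans 0 (-0.06 to 0.18).

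The 9 genes lie on 9 different chromosomes. Gfra1 is on chromosome 19, where expressed genes had a median log2 fold change of 0.06, Ret on chromosome 6 (-0.03) and Gdnf on chromosome 15 (-0.02). With the chromosome medians taken off, Gfra1 stood at 2.25, Ret at 0.96 and Gdnf at -0.33, and Gdnf then missed the threshold (adjusted p = 0.0573 in limma). Gfra4, on chromosome 2 with a median of -0.14, moved most under that step, from 0.07 to 0.22. Of the 6 measured genes nearest to Gfra1 in the RefSeq gene order, 3 on each side, 1 rose and 0 fell in limma, with log2 fold changes from -0.16 to 0.67. Over all genes 7.94% passed in either direction, and nothing is read from 1 of 6. The gene that rose was Atrnl1, which encodes an attractin-like membrane protein (0.67, SE 0.06, adjusted p = 0.0193). Around Ret, 1 of 6 fell, Bms1 of ribosome assembly (-0.42, SE 0.06), and around Gdnf 1 of 6 fell, the oncostatin M receptor gene Osmr (-0.42, SE 0.06). This look at neighbours was added after the data were seen.

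The 5 named genes whose course over the 4 arrays was most like that of Gfra1 were Cd34, Art3, Il13ra1, Gpnmb and Il2rg. Likeness was the root mean square difference between log2 values, each taken from its gene's own mean, and it ran from 0.07 for Cd34 to 0.11 for Il2rg. Cd34, a surface marker of progenitor cells, read 7.96 and 8.18 with the empty vector and 10.34 and 10.27 in the Myolinc line. Il2rg, the common gamma chain of several interleukin receptors, read 8.55 and 8.66 against 10.66 and 10.74, and Il13ra1, an interleukin-13 receptor chain, 8.11 and 8.29 against 10.32 and 10.39. Over 4 arrays in 2 groups this likeness says mainly that the genes rose by like amounts, and their log2 fold changes ran from 2.10 to 2.43.

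**Figure D3:**
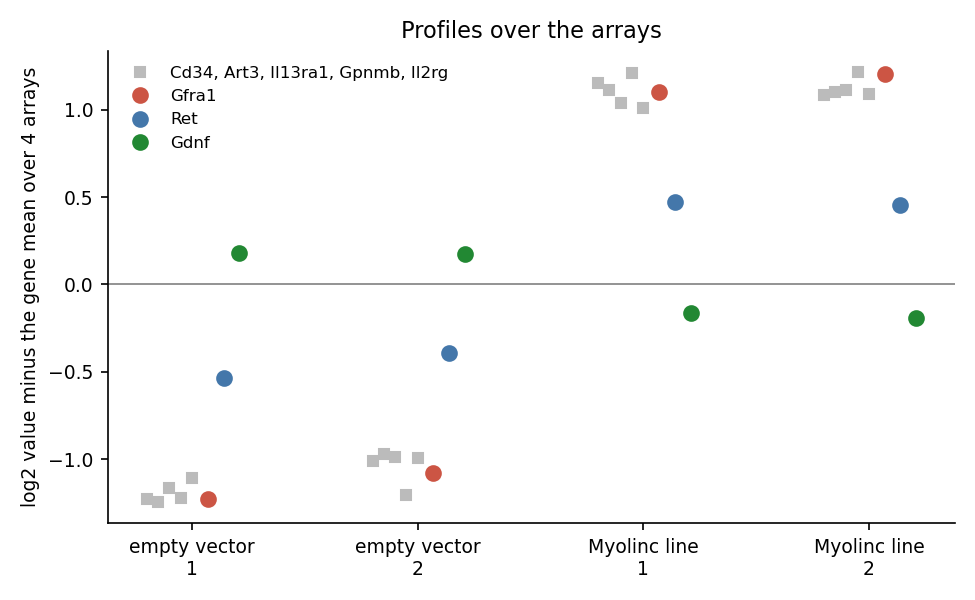
Log2 value minus the gene's own mean over the 4 arrays for Gfra1, Ret, Gdnf and, as grey squares, the 5 named genes nearest to Gfra1. Gfra1 and the grey genes move by about the same amount (log2 fold changes from 2.10 to 2.43), Ret moves the same way by 0.93, and Gdnf lies on the opposite side of 0 in each group.

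Genes that work with the family were then counted in 7 lists. Each count is a description, to be read beside the 3.97% of all genes that rose and the 3.97% that fell, or 7.94% in either direction. None of the 4 other ligands and receptors of GDNF type passed in limma, a count of 0 with 3 at an unadjusted p under 0.05. The shares above are for adjusted p and do not apply to those 3. Over all 20193 genes, 5152 had an unadjusted p of 0.0449 or less in limma. Gfral, the receptor of GDF15 that signals through RET, read 4.74 and 4.63 against 4.95 and 4.91, which is low in both groups. Its ligand gene Gdf15 had a log2 fold change of -0.19 (SE 0.06), and Pspn, the ligand of GFRalpha4, 0.11 (SE 0.08). Gas1, a relative of the GFRalpha receptors that can bind RET, read 8.75 and 8.74 with the empty vector and 8.31 and 8.45 in the Myolinc line (-0.37, SE 0.08, adjusted p = 0.0728).

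Among 15 cell surface and matrix partners 2 rose, 1 fell and 12 did not pass, with a median of -0.03. Ptprf, the receptor phosphatase LAR that can oppose RET signalling, read 9.29 and 9.34 with the empty vector and 7.35 and 7.29 in the Myolinc line. The groups did not overlap, and the Myolinc line stood 3.99-fold lower, with a log2 fold change of -2.00 (SE 0.06, adjusted p = 0.00579). Ptprf is also one of the nearest neighbours of Artn on chromosome 4. The heparan sulphate carriers Sdc1, which encodes syndecan-1, and Gpc1, which encodes glypican-1, rose by 0.47 (SE 0.06) and 0.48 (SE 0.06). Sdc3, whose product binds matrix-bound GDNF, had -0.11 (SE 0.07).

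Among 13 measured NCAM partners and polysialylation genes 5 rose, 0 fell and 8 did not pass, with a median of 0.14 and 9 of 13 log2 fold changes above 0. Over all 20193 genes the median was 0.02, and 11172 stood at or above the -0.002 of Ncam2, a gene of the list. The share of the list past the threshold was 38.5%, beside 7.94% of all genes, and no test of the list was made. Shares of the other lists, with the marker lists described below, ran from 0% for the other GDNF-type genes to 40% for myotube markers. They were 26.7% for neuronal markers and 20% for the cell surface and matrix partners. The number of list genes that rose changed with the setting, as given below. St8sia2, one of the enzymes that add polysialic acid to NCAM, read 6.54 and 6.35 with the empty vector and 6.98 and 6.99 in the Myolinc line (0.54, SE 0.09, adjusted p = 0.0470), below the median level in both groups. The other polysialyltransferase gene, St8sia4, had 0.14 (SE 0.08). Fyn, the Src-type kinase through which NCAM and GFRalpha1 can signal, read 10.03 and 10.11 against 10.60 and 10.52 (0.48, SE 0.07, adjusted p = 0.0376). The adhesion molecule gene L1cam rose by 0.65 (SE 0.07), Gap43, a growth cone protein gene that lies downstream of NCAM in neurons, by 0.66 (SE 0.07), and the FGF receptor gene Fgfr1 by 0.37 (SE 0.06). For 10 of the 13 the groups' arrays showed no overlap, beside 53.9% of all genes. The 5 that rose were among them, but they were named because they passed, so their separation adds nothing.

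Among 41 measured RET adaptors and signalling enzymes 2 rose, 2 fell and 37 did not pass, with a median of -0.04. The share past the threshold, 9.76%, was near the 7.94% of all genes. Shc2, an adaptor of the Shc family, read 7.93 and 7.87 with the empty vector and 8.63 and 8.57 in the Myolinc line (0.70, SE 0.06, adjusted p = 0.0207). Mapk3, the ERK1 kinase gene, rose by 0.44 (SE 0.06). Dok5, a docking protein that binds phosphorylated RET, read 7.43 and 7.73 against 6.45 and 6.47 (-1.12, SE 0.12, adjusted p = 0.0253), and Pik3cb, a catalytic subunit of PI3 kinase, fell by 0.52 on the log2 scale (-0.52, SE 0.07). The adaptors Shc1 (0.08, SE 0.07) and Frs2 (0.08, SE 0.06) did not pass. Other genes of the list missed the threshold by little in limma. Cd2ap had -0.38 (SE 0.06, adjusted p = 0.0509), Gab2 0.42 (SE 0.07, adjusted p = 0.0545) and Src -0.32 (SE 0.06, adjusted p = 0.0588).

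Among 21 genes known to be induced downstream of RET in the kidney or in neurons 1 rose, 1 fell and 19 did not pass, with a median of -0.06. The share past the threshold, 9.52%, was near the 7.94% of all genes. Egr1, an immediate early transcription factor gene, rose by 0.58 (SE 0.06), and Dusp6, the ERK phosphatase gene, read 9.41 and 9.27 with the empty vector and 8.79 and 8.76 in the Myolinc line (-0.56, SE 0.07, adjusted p = 0.0344). The RET-induced factor genes Etv4 (-0.39, SE 0.07) and Etv5 (0.12, SE 0.07) and the feedback inhibitor gene Spry4 (-0.34, SE 0.07) did not pass. Among 23 measured transcription factor genes that act on genes of the family 2 rose, 1 fell and 20 did not pass, with a median of 0.01. Snai2 rose by 0.40 (SE 0.06), and Runx3 fell (-0.51, SE 0.07).

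Among 29 measured ligands and receptors of other neurotrophic families 2 rose, 2 fell and 25 did not pass, with a median of 0.03. Nrg1, the neuregulin gene whose product acts at nerve and muscle contacts, read 10.13 and 10.16 with the empty vector and 9.58 and 9.61 in the Myolinc line (-0.55, SE 0.06, adjusted p = 0.0259). Hgf, the gene of a growth factor for satellite cells, read 6.01 and 6.24 against 6.78 and 6.79 (0.66, SE 0.10), below the median level in both groups. Nenf, which encodes neudesin, rose by 0.46 (SE 0.06). Bdnf had -0.38 (SE 0.07, adjusted p = 0.0534) and did not pass.

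**Figure D4:**
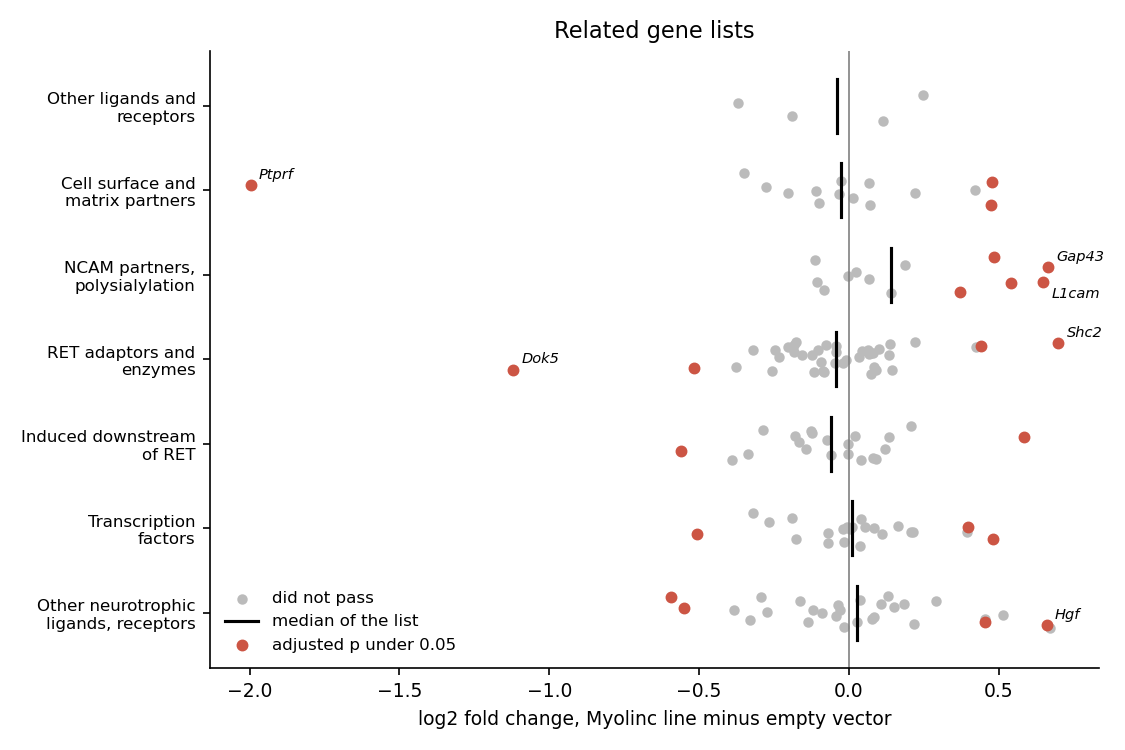
Log2 fold change of each measured gene in the 7 related lists, Myolinc line minus empty vector, with red points for an adjusted p under 0.05 in limma, grey points for the rest and a black bar at the list's median. The medians lie between -0.06 and 0.14, and Ptprf (-2.00) and Dok5 (-1.12) stand farthest from 0.

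Over the 7 lists, 14 of 146 genes rose and 7 fell, beside 3.97% of all genes in each direction, and the adjusted p of those that passed ran from 0.00579 to 0.0470. These counts changed with the setting. When control range rows were kept, 0 rose and 1 fell in limma, where 29 and 27 had an unadjusted p under 0.05, and with a trended and robust variance 23 rose and 26 fell. The counts over all genes changed with these settings as well and are given in the closing section. The 3.97% belongs to the default fit at an adjusted p, so it is no yardstick for these counts.

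Markers of cells that bear these receptors in tissue were read in the same arrays, and their counts too stand beside 3.97% of all genes that rose and 3.97% that fell. Of 15 measured neuronal markers 3 rose, 1 fell and 11 did not pass, and 6 reached the median level. Their mean level was 7.18 and 7.12 on the empty vector arrays and 7.34 and 7.29 on the Myolinc arrays. The neurofilament gene Nefl rose by 3.27 (SE 0.06), Mtap2, a microtubule-associated protein gene, by 0.79 (SE 0.06), and Gap43, which is also among the NCAM partners, as above. Stmn2, which encodes a neuronal stathmin, fell by 2.65 on the log2 scale (-2.65, SE 0.07), and Snap25, of the synaptic vesicle machinery, stood at 6.30 ± 0.26 and 6.36 ± 0.11. Of 15 Schwann cell and glial markers 0 rose and 1 fell, Pmp22 (-0.44, SE 0.06), with 4 at an unadjusted p under 0.05 in limma. Over all 20193 genes, 5152 had an unadjusted p of 0.0449 or less in limma, so nothing is read from those 4. The mean level of the glial markers was 6.99 and 6.90 against 7.04 and 6.96. Of the 15 glial markers 3 reached the median level, among them Ngfr (means of 8.29 and 8.59) and Pou3f1 (7.94 and 7.98). Sox10, a marker of these cells, stood at 6.98 ± 0.08 and 7.15 ± 0.26, below the median level. Of 10 myotube markers 3 rose and 1 fell, with mean levels of 7.31 and 7.24 against 7.47 and 7.37, of 9 myoblast markers 2 rose, Cdh15 and Itga7, and 0 fell, and of 8 fibroblast markers 0 rose and Col1a1 fell. Their part in the values of Gfra1, Ret and Gdnf was not tested.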

How the data were processed

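Each group had 2 Affymetrix arrays of total RNA from C2C12 cultures, 4 in all. The authors deposited log2 values, and the submitters' processing notes name RMA and limma, with no version. The sources used here do not state the probe annotation, build or filters. Per the file headers, a log2 fold change and its p-value stand beside each gene in the authors' deposited table, with no word on adjustment. The full table held 35556 rows. Those numbered below the first row with a symbol, 6616 rows, were treated as controls (the control range) and dropped, and 28940 were tested with no filter on level. Each of 20193 symbols had 1 row, and 19457 matched a RefSeq gene (GRCm38.p6).

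Groups were compared with limma 3.58.1 in R 4.3.3 (lmFit and eBayes, default settings), in two-sided tests adjusted by Benjamini-Hochberg over 28940 probe sets, at a threshold of 0.05. Residual degrees of freedom were 2 and prior degrees of freedom 2.18 (2.185). With 2 arrays against 2, an exact permutation test cannot go below 0.333. The fit was tested on simulated data. Figures were drawn with matplotlib 3.10.9.

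The 9 genes and the gene lists (7 related and 5 of cell markers) were chosen with earlier results of these data known. Named genes were the 9, up to 6 members of each list that passed, and the 5 profiles nearest to Gfra1, leaving out predicted genes. Further list members given with values that did not pass, such as Gas1, Etv4 and Bdnf, were chosen after their values were seen. A few genes that the lists hold are not reported here by name.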

Additional observations from a re-analysis of the deposited data

How the results depend on the processing

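Counts of genes past the threshold depended on the setting, and are given here as rises and falls over all genes (802 and 802), over the 9 family genes (2 and 1) and over the 146 related list genes (14 and 7). With a replicate block they were 89 and 47, 1 and 0, and 0 and 1. The labels number the replicates alike in both groups, the deviations of same-numbered arrays correlated at 0.215 over probe sets, and nothing in the labels ties the numbers to a shared day or batch. With a trended and robust variance they were 1929 and 2280 over all genes and 23 and 26 over the lists, and without the probe sets of lower level 1898 and 2298, and 23 and 25. With the control range kept they were 171 and 116, 2 and 0, and 0 and 1. With the workbook rows alone 1206 rose and 1284 fell, and 17 list genes fell. At a threshold of 0.10 they were 1468 and 1601, with 19 list genes falling. At 0.01 they were 59 and 31, 1 and 0, and 0 and 1, and with at least 2-fold 136 and 92, 1 and 0, and 0 and 2. Gdnf did not pass after centring on array medians or removal of chromosome medians, a count of 0 falls among the family in each, with 1 at an unadjusted p under 0.05 in limma. An ordinary linear model gave 0 for every count, with 2236 and 2341 genes at an unadjusted p under 0.05. Leaving out 1 array gave 0 to 782 rises and 0 to 686 falls over all genes, 0 to 2 and 0 to 0 in the family, and 0 to 8 and 0 to 6 in the lists. The zeros over all genes were those without empty vector replicate 1 (1792 rises and 1847 falls at an unadjusted p under 0.05 in limma) and replicate 2 (1716 and 1606). Without Myolinc replicate 1 they were 355 and 282 over all genes and 3 and 3 in the lists. Without Myolinc replicate 2, Gfra2, which had not passed, turned to -0.058, and its log2 fold change ran from -0.058 to 0.18 when 1 array was left out. Recovery of the values stored with 3 digits, chosen after seeing the data, changed none of the 6 counts, and the planned replacement from the other table was not run because both tables hold the same digits. The other causes were not tested.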
